A study of Mus musculus with 24 samples.

Results

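The 10 genes described here encode surface molecules through which antigen-presenting cells stimulate or restrain T cells: Cd80, Cd86, Icosl, Cd274, Pdcd1lg2, Cd40, Cd83, Tnfsf9, Cd70 and Tnfsf4. They were picked by symbol, with earlier results of these data known. All 10 were present among the 54532 genes of the expression table, whose coordinates are those of GRCm38. Expression was measured by polyA RNA-sequencing in 24 libraries of bone marrow-derived macrophages (BMDMs, cultured with L929 supernatant) and bone marrow-derived dendritic cells (BMDCs, cultured with GM-CSF and IL-4). The donors were C57BL/6N mice with floxed Tmem173, the gene of STING, and all donors received tamoxifen. WT libraries came from Tmem173fl/fl mice and CRE libraries from Tmem173fl/flLzym-Creert2 mice, whose inducible Cre is driven by the myeloid gene Lyz2. Cells were left as controls (CT) or stimulated with DMXAA (DX), an agonist of mouse STING, and the 8 groups held 3 libraries each. The series design gives DMXAA as 40 µM whereas the study's methods use µg/mL, so the concentration is uncertain. The study's methods give ages of tamoxifen-treated mice and exposure times of other BMDC cultures, but neither is stated for these libraries in the sources used here, nor is it stated whether a number marks a mouse, a pool or a culture, so p-values measure only the spread between these libraries.

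A T cell needs a second signal beside its antigen receptor, and the CD28 ligands CD80 and CD86 on dendritic cells and macrophages are the classical source of it. The PD-1 ligands encoded by Cd274 (PD-L1) and Pdcd1lg2 (PD-L2) restrain the same T cells, while ligands of the TNF superfamily and CD40 prolong and license the contact. Several of these molecules are low on resting myeloid cells and are known to be induced by interferons and NF-kB signalling.

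Total counts were 16470157 to 18912887 per BMDM library and 15657347 to 18080027 per BMDC library. The BMDM libraries numbered 3 stood apart in all 4 groups. Their 11 macrophage markers summed to 19.7 to 33.2 FPKM (fragments per kilobase of transcript, scaled to library size), against at least 7329 in the BMDM libraries numbered 1 and 2, and their 4 leukocyte markers to at most 5.86 against at least 589.6. Fibroblast markers summed to 1155 to 1991 FPKM there. Over these 4 libraries Pdcd1lg2 and Cd70 had 0 counts in total, Cd86 and Tnfsf4 1 count each, Cd83 2, Icosl 18, Cd40 25, Cd80 63 and Cd274 239. Tnfsf9 was the exception, at 3.57 to 4.93 FPKM. BMDM results below therefore use numbers 1 and 2 (n = 2 per group), and results with number 3 are given as an alternative.

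In BMDCs, 4 library pairs across the genotype labels were closer than any pair within a group. As a measure of distance, the squared difference of each gene was divided by what counting noise gives, and the median over genes was taken. It was 2.497 between WT control number 3 and CRE control number 1 and 2.92 between WT control number 2 and CRE control number 3, whereas pairs within a BMDC group gave at least 4.86. Under DMXAA the same numbers were close, namely WT number 3 and CRE number 1 (2.61), and WT number 2 and CRE number 3 (2.64). Cd86 had 118 FPKM in both of the former and 96.8 and 97.4 in the latter. The 6 neutrophil markers summed to 437 FPKM in CRE BMDC number 2 in control and 230.1 under DMXAA. The other BMDC libraries had 11.9 to 25.45. In control and DMXAA of CRE number 2, S100a8 was 202.2 and 109.3 FPKM, S100a9 222.7 and 109.4 and Elane 11.74 and 10.46. Ly6g (0.3374 and 0), Mpo (0 and 0.05635) and Camp (0.4892 and 0.9334) stayed under 1 FPKM there. CRE number 2 and WT number 1 were far from every other BMDC library, at 13.2 or more on the distance above. In BMDMs, WT control number 1 was nearer to CRE controls number 1 and 2 (8.707 and 9.64) than to WT control number 2 (24.43). WT control number 2 was nearest to CRE control number 1 (18.11). The CRE libraries of a treatment were close, at 1.954 in control and 2.96 under DMXAA, against 18.16 for WT DMXAA. The BMDM label comparisons below rest on these libraries. The dendritic cell markers summed to 3159 to 7803 FPKM in BMDCs and to 77.6 to 188 in BMDMs numbered 1 and 2. Most of the BMDC sum was Cd74 (2335 to 6338 FPKM), with Ccr7, H2-Ab1 and Itgax at 84.92 to 769.8. Zbtb46, Cd209a and Ciita had at most 6.77, 5.95 and 8.63 FPKM in BMDCs. Flt3, a defining marker, was at most 1.45 FPKM in any library. The 11 macrophage markers also summed to 1345 to 6315 FPKM in BMDCs, with 9 to 10 of them at 1 FPKM or more. Lyz2 made up 926.6 to 5963 FPKM of that. T cell and B cell markers summed to at most 0.949 and 0.74 FPKM in BMDCs.

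Tmem173 itself was detected in every group. Its BMDM level was 14.7 and 9.91 FPKM in WT controls, 31.85 and 22.8 under DMXAA in WT, 10.4 and 8.76 in CRE controls and 9.12 and 10.1 under DMXAA in CRE. The BMDC means ran from 28.3 to 41.9 FPKM over the 4 groups. CRE was below WT in DMXAA BMDMs by -1.45 ± 0.24 on the log2 scale (edgeR adjusted p = 0.0092), and no difference was called in BMDM controls or in BMDCs. WT and CRE are therefore used here as labels. In these bulk cultures, fewer cells of a type and less RNA per cell cannot be told apart.

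Promoter sequence was available for 4 of the 10 genes. Those of Cd274 and Pdcd1lg2 are shown because these neighbours on the forward strand of chromosome 19 encode the PD-1 ligands, whose levels in BMDMs were unlike. The windows run from 250 bases before the RefSeq start site to 50 after it, 5′ to 3′ (GRCm38.p6), and capitals mark matches to the NF-kB letters given below.
Cd274 promoter, chr19:29367188-29367487, + strand: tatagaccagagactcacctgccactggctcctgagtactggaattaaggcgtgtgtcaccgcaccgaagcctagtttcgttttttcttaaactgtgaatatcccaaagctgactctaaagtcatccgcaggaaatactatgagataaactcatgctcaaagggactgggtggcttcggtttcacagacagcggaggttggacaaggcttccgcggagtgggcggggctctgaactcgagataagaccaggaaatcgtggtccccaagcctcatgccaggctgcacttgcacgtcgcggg
Pdcd1lg2 promoter, chr19:29410669-29410968, + strand: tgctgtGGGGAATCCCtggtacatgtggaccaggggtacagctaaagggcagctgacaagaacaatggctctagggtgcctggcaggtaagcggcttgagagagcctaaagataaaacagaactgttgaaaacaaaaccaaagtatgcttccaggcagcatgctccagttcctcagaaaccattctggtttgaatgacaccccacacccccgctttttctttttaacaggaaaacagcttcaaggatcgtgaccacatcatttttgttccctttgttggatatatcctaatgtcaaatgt
Both strands were searched for GAAA, 2 free bases and GAAA (interferon-stimulated response element), for GGG, 5 free bases and CC (NF-kB) and for TTC, 3 free bases and GAA (gamma-activated site), counting overlapping matches. Over 32851 promoter windows of the same length, these letters occurred in 3.44%, 50.8% and 8.3%, respectively. The Cd274 window held none of them. In the Pdcd1lg2 window 1 NF-kB match lay at -244 to -235, and the windows of Cd80 and Icosl held 2 NF-kB matches each.

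The levels fell into overlapping patterns across the 8 groups. In mean FPKM, Cd274, Cd40, Cd86, Cd83, Icosl and Tnfsf4 were always higher under DMXAA than in control of the same cells and label. The step was small for Cd83 in BMDMs (10.28 to 12.81 in WT) and for Icosl in CRE BMDMs (1.231 to 1.262). Tnfsf4 was near the floor in CRE BMDMs (0.04104 to 0.2325). Cd80, Cd83, Pdcd1lg2, Cd70 and Tnfsf4 were higher in BMDCs than in BMDMs. No group mean of Tnfsf9 was above 18.1 FPKM and none of Icosl above 8.89.

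**Figure D1:**
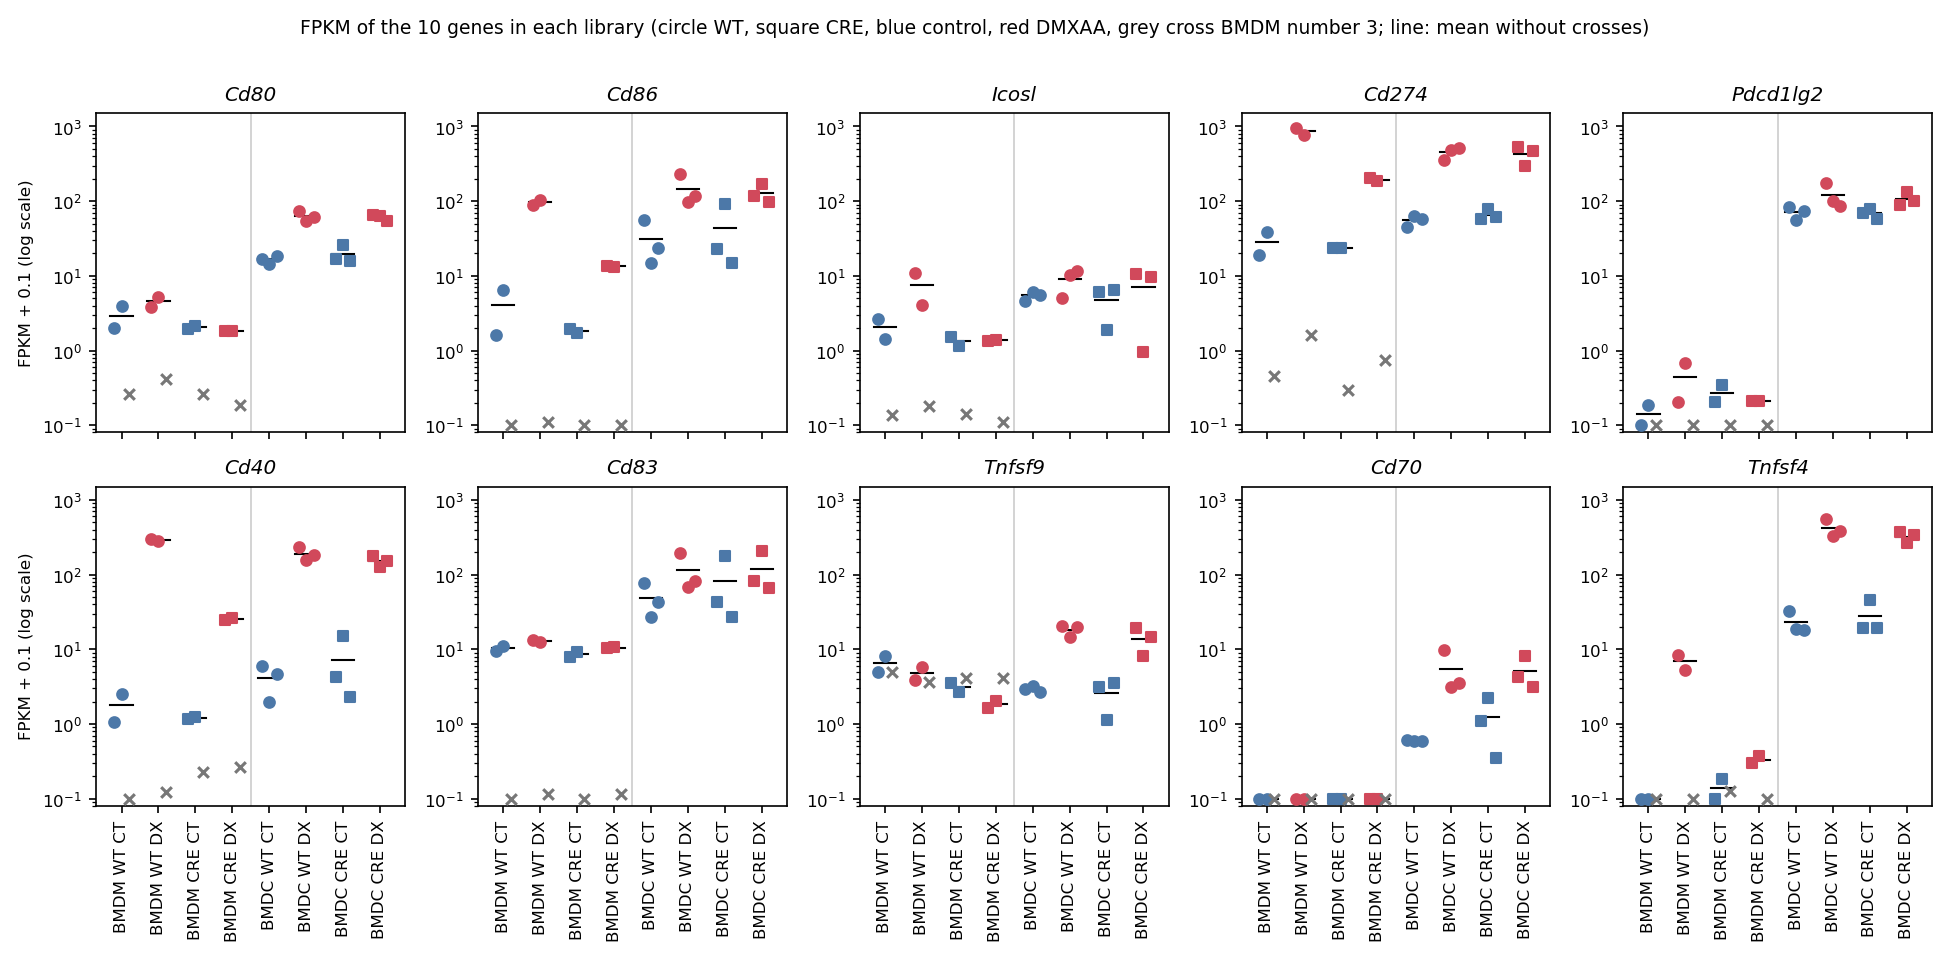
FPKM plus 0.1 on a log axis for each of the 10 genes in all 24 libraries, by group; circles are WT, squares CRE, blue control, red DMXAA, grey crosses the BMDM libraries numbered 3, and the line is the group mean without the crosses. Cd274 reached 763.9 and 963.8 FPKM in the WT DMXAA BMDMs, while Cd70 lay at 0 in every BMDM library.

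The first question was which of these genes responded to DMXAA. In WT BMDMs, Cd86, Icosl, Cd274, Cd40 and Tnfsf4 rose, 5 of the 8 genes that passed the filter, and 0 fell. Over all 11569 genes tested, 18.4% rose and 20.7% fell. The median log2 change was 3.16 over the 8 genes, also with Tnfsf4 at its lower bound, and -0.08 over all genes. Tnfsf4 passed the filter through the WT DMXAA libraries alone, so its call was bound to follow, and Pdcd1lg2 and Cd70 were too low to be tested. In CRE BMDMs, Cd86, Cd274 and Cd40 rose and 0 fell, where 7.28% of all genes rose and 2.72% fell. Leaving out CRE control number 1 or number 2 reduced the 3 calls to 1, Cd40, and leaving out either CRE DMXAA library to 2. With the libraries numbered 3 included, 0 genes of the 10 and 0 of all genes were called by edgeR in either label.

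In WT BMDCs, 8 of the 10 genes rose and 0 fell, beside 17.0% of 12126 genes that rose and 15.2% that fell. The median log2 change was 2.42 over the 10 genes and 0.01 over all. Cd83 and Icosl were the exceptions. In CRE BMDCs 6 rose, namely Cd80, Cd274, Cd40, Tnfsf9, Cd70 and Tnfsf4, and 0 fell, beside 14.0% and 11.4% of all genes. Control and DMXAA libraries of the same number deviated together within a label in BMDCs, and with the number as a block 9 of the 10 rose in each label, all but Icosl. Cd70 was under 1 FPKM in every WT control and passed the filter mainly through DMXAA libraries. Nothing is therefore read from its place in these counts or in the median.

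**Figure D2:**
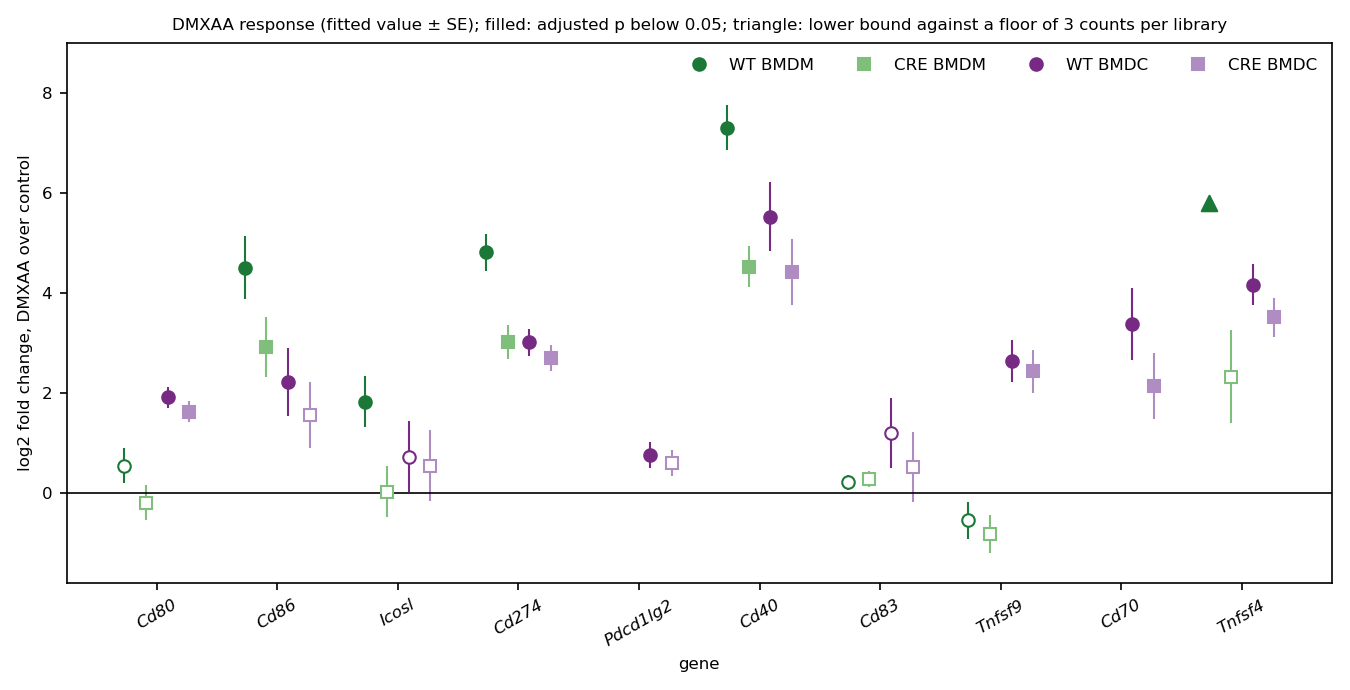
Log2 fold change of DMXAA over control with its SE for each gene in WT and CRE BMDMs (green, numbers 1 and 2) and BMDCs (purple); filled symbols passed an adjusted p of 0.05 and the triangle is a lower bound. Cd40 stands at 7.30 in WT BMDMs and at 5.52 and 4.41 in WT and CRE BMDCs.

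Cd80 (ENSMUSG00000075122, chr16:38455561-38496335) encodes the CD28 and CTLA-4 ligand that is usually the later of the pair to appear. WT BMDCs had 16.8, 14.1 and 18.45 FPKM in control and 73.3, 53.7 and 61.9 under DMXAA. CRE BMDCs had 16.9, 25.97 and 15.7 FPKM in control and 64.9, 63.1 and 54.6 under DMXAA. The 6 stimulated libraries all lay above the 6 controls, and the labels overlapped. The log2 rise was 1.91 ± 0.21 (SE) in WT (edgeR adjusted p = 5.59e-05) and 1.62 ± 0.21 in CRE (edgeR adjusted p = 0.00021).

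BMDMs held far less Cd80, with 1.88 and 3.79 FPKM in WT control, 3.77 and 5.14 in WT DMXAA, 1.87 and 2.001 in CRE control and 1.71 and 1.72 in CRE DMXAA. The WT groups overlapped, and neither label passed the test for a response (log2 changes of 0.54 ± 0.35 in WT and -0.20 ± 0.36 in CRE). Without WT control number 2 the WT change was 1.17 and was called (edgeR adjusted p = 0.0181). BMDCs exceeded BMDMs by 2.48 ± 0.29 on the log2 scale in WT control (edgeR adjusted p = 1.06e-05) and by 3.87 ± 0.31 under DMXAA (edgeR adjusted p = 3.37e-07). The responses of the 2 cell types differed by 1.39 ± 0.37 without passing the threshold (edgeR adjusted p = 0.063), and by 1.79 without BMDM control number 1 (edgeR adjusted p = 0.0209).

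Cd86 (ENSMUSG00000022901, chr16:36603869-36666081, reverse strand) encodes the other CD28 ligand, the one present on resting antigen-presenting cells. In WT BMDMs it went from 1.51 and 6.33 FPKM to 87.8 and 105.1 with DMXAA, and in CRE BMDMs from 1.85 and 1.61 to 13.6 and 12.9. Stimulated and control libraries were separate in both labels, and the CRE DMXAA libraries lay between the WT groups. The rise was 4.50 ± 0.63 on the log2 scale in WT (edgeR adjusted p = 0.00207) and 2.92 ± 0.60 in CRE (edgeR adjusted p = 0.0298). In CRE the call was lost without any 1 of the 4 libraries, with log2 changes of 2.81 to 3.01.

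In BMDCs Cd86 varied widely between libraries. WT control had 55.4, 14.6 and 23.7 FPKM and WT DMXAA 227, 96.8 and 118, while CRE control had 22.7, 92.4 and 14.8 and CRE DMXAA 118, 172 and 97.4. WT number 1 and CRE number 2 were the highest of their groups in control and under DMXAA alike. The rise was 2.21 ± 0.68 in WT (edgeR adjusted p = 0.0277) and 1.55 ± 0.66 in CRE (edgeR adjusted p = 0.1125), where with the number as a block it was 1.98 (edgeR adjusted p = 0.00076). Without CRE control number 2, the library rich in S100a8 and S100a9, the CRE rise was 2.75 (edgeR adjusted p = 0.0052). The WT call was lost without DMXAA number 1, control number 2 or control number 3, with log2 changes of 1.78 to 2.05.

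The balance of the 2 CD28 ligands can be read within a library, free of the scaling between libraries. In BMDMs the ratio of Cd86 to Cd80 FPKM was 0.80 and 1.67 in WT control and 23.3 and 20.4 in WT DMXAA. In CRE it was 0.99 and 0.81 in control and 7.99 and 7.48 under DMXAA. In BMDCs it ran between 0.94 and 3.56 in control and 1.78 and 3.10 under DMXAA, so that control and stimulated libraries overlapped. By number, it rose in WT number 2 (1.036 to 1.803) and 3 (1.285 to 1.91) and in CRE number 1 (1.344 to 1.824) and 3 (0.9444 to 1.784). It fell in WT number 1 (3.303 to 3.104) and CRE number 2 (3.56 to 2.723).

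Icosl (ENSMUSG00000000732, chr10:78069302-78083913) encodes the ligand of ICOS, a receptor of follicular helper and other activated T cells. WT BMDMs had 2.53 and 1.34 FPKM in control and 10.9 and 3.91 under DMXAA, whereas CRE BMDMs had 1.40 and 1.06 in control and 1.22 and 1.30 under DMXAA. The WT rise was 1.82 ± 0.51 on the log2 scale (edgeR adjusted p = 0.0285) and the CRE change 0.01 ± 0.51. The WT call rested on few libraries. Without DMXAA number 1 the log2 change was 0.92 (edgeR adjusted p = 0.1323), without control number 2 it was 1.46 (edgeR adjusted p = 0.1003), and scaled to library totals it was 1.27 (edgeR adjusted p = 0.0562). BMDC libraries ranged from 1.8 to 6.37 FPKM in control and from 0.85 to 11.6 under DMXAA, the lowest being CRE number 2 in both, and no BMDC response was called.

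Cd274 (ENSMUSG00000016496, chr19:29367455-29388095), the gene of PD-L1, had the highest single group mean among the 10 genes, 863.9 FPKM in WT DMXAA BMDMs. WT BMDMs went from 18.7 and 38.2 FPKM to 964 and 763.9, and CRE BMDMs from 23.6 and 23.6 to 204 and 185. Control libraries of the labels overlapped, while under DMXAA every CRE library was far below both WT libraries. The rise was 4.81 ± 0.37 on the log2 scale in WT (edgeR adjusted p = 0.00019) and 3.02 ± 0.34 in CRE (edgeR adjusted p = 0.00292). The CRE call was narrowly lost without CRE control number 1 or number 2 (edgeR adjusted p = 0.0517 and 0.0528), with log2 changes of 3.01.

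WT BMDCs started higher in Cd274 than WT BMDMs and ended lower. WT control had 45.4, 63.45 and 57.0 FPKM and WT DMXAA 361, 484 and 510.3, while CRE control had 57.5, 78.7 and 61.0 and CRE DMXAA 533, 298 and 467. The labels overlapped and the treatments did not. The rise was 3.01 ± 0.27 in WT (edgeR adjusted p = 1.23e-05) and 2.70 ± 0.26 in CRE (edgeR adjusted p = 2.84e-05). WT BMDCs exceeded WT BMDMs by 0.90 ± 0.30 in control (edgeR adjusted p = 0.032) and lay below them by -0.88 ± 0.28 under DMXAA (edgeR adjusted p = 0.0277). The response in BMDCs was smaller by -1.79 ± 0.41 (edgeR adjusted p = 0.031). These 3 calls were sensitive to single libraries: without BMDM control number 1 the control difference was 0.50 (edgeR adjusted p = 0.3144), and without BMDM DMXAA number 1 the DMXAA difference was -0.72 (edgeR adjusted p = 0.1891) and the response difference -1.675 (edgeR adjusted p = 0.1348). The control difference was also lost without BMDC control number 2 or 3 (0.82 and 0.91), the DMXAA difference without BMDC DMXAA number 1 (-0.75) or with library totals (-0.69), and the response difference without BMDM control number 1 (-1.38), BMDC DMXAA number 1 (-1.70) or BMDC control number 2 or 3 (-1.70 and -1.79).

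Pdcd1lg2 (ENSMUSG00000016498, chr19:29410919-29471157), the gene of PD-L2, had few counts in BMDMs. The 8 BMDM libraries numbered 1 and 2 held 0 to 14 counts each, at most 0.59 FPKM. WT BMDCs had 83.6, 55.8 and 73.3 FPKM in control and 176, 102 and 87.0 under DMXAA. CRE BMDCs had 70.3, 79.4 and 57.8 in control and 88.5, 131 and 99.5 under DMXAA. On the FPKM scale the DMXAA libraries of both labels lay above the controls. In counts per library total (CPM) the groups overlapped, since WT number 3 had 140.1 CPM in control and 127.8 under DMXAA, and CRE number 1 had 134 and 129.8.

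The log2 rise of Pdcd1lg2 was 0.75 ± 0.26 in WT BMDCs (edgeR adjusted p = 0.0466) and 0.60 ± 0.26 in CRE BMDCs (edgeR adjusted p = 0.1175), and with the number as a block 0.71 (edgeR adjusted p = 0.0051) and 0.59 (edgeR adjusted p = 0.0148). The WT call was lost in 11 of 16 alternatives. These included the block over both labels (0.71, edgeR adjusted p = 0.0662), limma on log2(FPKM + 1) (0.72) and log2(FPKM + 0.1) (0.73), and the filter of 10 counts (0.76). The log2 change was 0.38 when counts were scaled to library totals (edgeR adjusted p = 0.2276), 0.75 with the compared groups only, 0.41 without DMXAA number 1 (edgeR adjusted p = 0.2089), 0.605 without control number 2 and 0.78 to 0.88 without control number 1, control number 3 or DMXAA number 2. WT control BMDCs held 6723 counts and WT control BMDMs 3, a ratio per library size of 1594 with a counting interval of 545 to 7732. In WT BMDMs, 16 counts under DMXAA stood against 3 in control, a ratio of 5.62 with an interval of 1.61 to 30.1, and 14 of the 16 came from number 2.

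Within BMDC libraries the ratio of the PD-1 ligands rose with DMXAA in each of the 6 pairs of the same number and label. The ratio of Cd274 to Pdcd1lg2 FPKM was 0.54, 1.14 and 0.78 in WT control and 2.05, 4.75 and 5.87 in WT DMXAA. In CRE it was 0.82, 0.99 and 1.05 in control and 6.02, 2.27 and 4.70 under DMXAA. The treatments did not overlap, and the lowest DMXAA ratios were those of WT number 1 and CRE number 2, the libraries that stood apart.

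**Figure D3:**
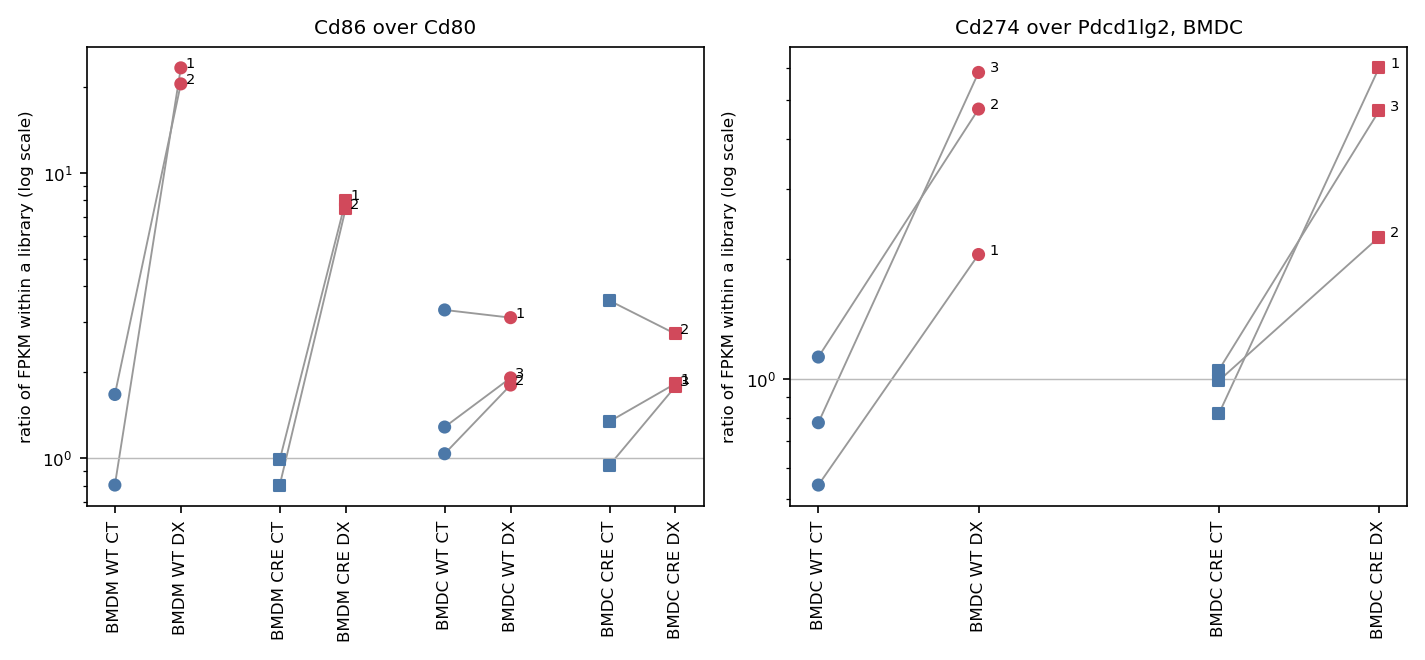
Ratio of FPKM within a library on a log axis, Cd86 over Cd80 in BMDMs and BMDCs (left) and Cd274 over Pdcd1lg2 in BMDCs (right); lines join libraries of the same number, circles are WT, squares CRE, blue control and red DMXAA. Cd86 over Cd80 reached 23.3 in WT BMDMs and at most 3.56 in BMDCs, and Cd274 over Pdcd1lg2 was at least 2.05 in all stimulated BMDC libraries.

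Cd40 (ENSMUSG00000017652, chr2:165055627-165072948) is the receptor by which helper T cells license antigen-presenting cells. WT BMDMs went from 0.98 and 2.42 FPKM to 300.5 and 279.8, and CRE BMDMs from 1.05 and 1.12 to 24.95 and 25.9. The WT DMXAA libraries were the highest of all 24. The rise was 7.30 ± 0.45 on the log2 scale in WT (edgeR adjusted p = 7.61e-05) and 4.52 ± 0.41 in CRE (edgeR adjusted p = 0.00095). Its BMDM response differed between labels by the test of the difference, at -2.78 ± 0.52 (edgeR adjusted p = 0.0422). The difference kept its size (-2.74 to -2.845) but lost its call without WT DMXAA number 1 or without any 1 of the 4 CRE libraries.

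In BMDCs the Cd40 levels of the labels overlapped. WT went from 5.81, 1.87 and 4.51 FPKM to 233, 155 and 180.3, and CRE from 4.165, 14.8 and 2.215 to 176, 127 and 154. CRE control number 2 was the highest control, and the treatments did not overlap. The rise was 5.52 ± 0.69 in WT (edgeR adjusted p = 0.00014) and 4.41 ± 0.65 in CRE (edgeR adjusted p = 0.00059). Between cell types no Cd40 difference was called in control (1.19 ± 0.62) or under DMXAA (-0.57 ± 0.56).

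Cd83 (ENSMUSG00000015396, chr13:43784775-43803132) is a marker of mature dendritic cells that sustains their surface MHC class II. It ranged from 7.83 to 13.3 FPKM over the 8 BMDM libraries. Its WT BMDM change of 0.21 ± 0.15 turned to -0.31 when counts were scaled to library totals, and neither value passed the test. In BMDCs the values were 76.5, 27.1 and 42.6 FPKM in WT control, 192, 67.75 and 81.9 in WT DMXAA, 43.4, 177 and 27.0 in CRE control and 81.8, 209 and 66.95 in CRE DMXAA. As for Cd86, WT number 1 and CRE number 2 were high with and without DMXAA.

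On the FPKM scale each BMDC number had more Cd83 under DMXAA than in control, while per library total CRE number 2 had 484.5 CPM in control and 462.6 under DMXAA. The changes were 1.19 ± 0.71 in WT (edgeR adjusted p = 0.235) and 0.51 ± 0.70 in CRE (edgeR adjusted p = 0.672), and with the number as a block 1.17 (edgeR adjusted p = 0.00061) and 0.79 (edgeR adjusted p = 0.0068). WT BMDCs exceeded WT BMDMs by 2.18 ± 0.73 in control (edgeR adjusted p = 0.0348) and 3.20 ± 0.77 under DMXAA (edgeR adjusted p = 0.0053). The control call was lost without BMDM control number 1 or 2 or BMDC control number 1 or 3 (1.71 to 2.35), and the DMXAA call without BMDM DMXAA number 1 (3.23, edgeR adjusted p = 0.0509).

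Tnfsf4 (ENSMUSG00000026700, chr1:161395409-161418410) encodes OX40 ligand, which sustains activated helper T cells. WT BMDCs went from 32.25, 18.8 and 18.2 FPKM to 554.5, 325 and 377.5, and CRE BMDCs from 18.9, 46.1 and 19.0 to 367, 264 and 337.5. The treatments were widely separated and the labels overlapped. The rise was 4.16 ± 0.41 in WT (edgeR adjusted p = 2.52e-05) and 3.51 ± 0.39 in CRE (edgeR adjusted p = 8.76e-05).

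In BMDMs Tnfsf4 was at 0 counts in both WT controls and at 174 and 138 counts (8.35 and 5.19 FPKM) with DMXAA, which is at least 55.4-fold higher against a floor of 3 counts per library. CRE BMDMs had 0 and 3 counts in control and 6 and 8 under DMXAA, a ratio of 4.52 with a counting interval of 1.26 to 24.5. Under DMXAA the CRE libraries lay below WT by -4.79 ± 0.70 on the log2 scale (edgeR adjusted p = 0.0093). The gene passed the BMDM filter only through the WT DMXAA libraries, so this call was bound to follow and nothing is read from it. WT control BMDCs had at least 287.5-fold more than WT control BMDMs, and under DMXAA the difference was 6.005 ± 0.54 (edgeR adjusted p = 1.89e-06).

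Tnfsf9 (ENSMUSG00000035678, chr17:57105325-57107757), the ligand of CD137, moved differently in the 2 cell types. WT BMDCs went from 2.88, 3.16 and 2.57 FPKM to 20.1, 14.4 and 19.8, and CRE BMDCs from 3.07, 1.03 and 3.48 to 19.0, 7.98 and 14.5. WT BMDMs had 4.82 and 8.05 in control and 3.77 and 5.69 under DMXAA, and CRE BMDMs 3.47 and 2.58 in control and 1.54 and 1.92 under DMXAA. The BMDC treatments were separate. The WT BMDM treatments overlapped, whereas both CRE BMDM libraries under DMXAA lay below both CRE controls.

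The Tnfsf9 rise was 2.63 ± 0.42 in WT BMDCs (edgeR adjusted p = 0.00074) and 2.42 ± 0.42 in CRE BMDCs (edgeR adjusted p = 0.00165). The BMDM changes of -0.55 ± 0.37 in WT and -0.82 ± 0.38 in CRE did not pass. With the compared groups only, the CRE BMDM fall was called (-0.82, edgeR adjusted p = 0.0141). The response was larger in WT BMDCs than in WT BMDMs by 3.20 ± 0.62 (edgeR adjusted p = 0.0111), and by 2.87 (edgeR adjusted p = 0.0955) without BMDM DMXAA number 1. WT BMDCs were accordingly below BMDMs in control (-1.22 ± 0.42, edgeR adjusted p = 0.0412) and above them under DMXAA (1.98 ± 0.46, edgeR adjusted p = 0.0039). The control difference was lost without any 1 of BMDM number 2 (-0.77) or the 3 BMDC libraries (-1.12 to -1.27) and with counts scaled to library totals (-1.18), and the DMXAA difference without BMDM DMXAA number 1 (1.70, edgeR adjusted p = 0.06).

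Cd70 (ENSMUSG00000019489, chr17:57145997-57149777, reverse strand), the ligand of CD27, had 0 counts in each of the 12 BMDM libraries. A count of 0 allows up to 3 counts per library. WT BMDCs had 8 counts in every control (0.48 to 0.51 FPKM) and 115, 39 and 43 under DMXAA (9.54, 3.04 and 3.385 FPKM). CRE BMDCs had 17, 34 and 4 counts in control and 49, 104 and 39 under DMXAA. WT number 1 and CRE number 2 were again the highest under DMXAA, and 6 of the 7 libraries with at least 1 FPKM were DMXAA libraries. The gene thus passed the filter mainly through the libraries where it was high. The rise was 3.37 ± 0.72 in WT (edgeR adjusted p = 0.0041) and 2.13 ± 0.665 in CRE (edgeR adjusted p = 0.0357). Without CRE control number 1 or 3 or CRE DMXAA number 1 or 2, the latter was 1.655 to 2.25 and no longer called. WT DMXAA BMDCs held at least 21.7-fold more than WT DMXAA BMDMs against the floor.

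The next question was whether the labels differed. In BMDM controls 0 of the 8 genes tested were called, beside 0.0432% of all genes, and 1 of the 8 had an unadjusted p under 0.05 in edgeR. The WT controls differed from each other, Cd86, Cd40 and Cd274 being higher in number 2, and without WT control number 1, Cd86 (-1.93, edgeR adjusted p = 0.0102) and Cd40 (-1.21, edgeR adjusted p = 0.0152) were lower in CRE. Under DMXAA 7 of the 8 were lower in CRE, with Cd83 the exception, beside 19.2% of all genes called in either direction. Tnfsf4 again passed the filter only through the WT DMXAA libraries, so nothing is read from its place in this count or in the median. The median log2 difference was -2.30 over the 8 genes and 0.01 over all genes. These 7 ranged from -1.33 ± 0.36 for Cd80 (edgeR adjusted p = 0.0448) and -1.41 ± 0.38 for Tnfsf9 (edgeR adjusted p = 0.0463) through -2.10 ± 0.33 for Cd274 and -2.82 ± 0.58 for Cd86 to -3.465 ± 0.37 for Cd40 and -4.79 ± 0.70 for Tnfsf4.

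This comparison shares its WT DMXAA libraries with the WT response above, and it leaned on its few libraries. Without CRE DMXAA number 1 or number 2, 1 gene of the 8 was called (Cd40), although the log2 differences of the 7 stayed between -1.27 and -5.03. Without WT DMXAA number 1 the count was 4 and without WT DMXAA number 2 it was 5, and with library totals Cd80 (-1.11) and Tnfsf9 (-1.18) were lost. Icosl fell back from -2.495 ± 0.52 to -1.595 without WT DMXAA number 1 (edgeR adjusted p = 0.0535). Fibroblast markers summed to 51.2 and 62.7 FPKM in WT number 2 and to 4.13 to 7.38 in the other 6 libraries. Of the 6 tested between labels under DMXAA 0 were called, with a median log2 difference of -2.87 and 2 at an unadjusted p under 0.05 in edgeR. Their part in these differences was not tested.

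Whether the BMDM response itself differed was tested as an interaction. In this fit Cd40 was called, 1 of the 8 genes, beside 3.66% of all genes, and 4 of the 8 had an unadjusted p under 0.05. Cd274 gave -1.79 ± 0.45 (edgeR adjusted p = 0.08845), Cd86 -1.585 ± 0.80 (edgeR adjusted p = 0.333) and Icosl -1.805 ± 0.71 (edgeR adjusted p = 0.222). Without WT control number 2 the count was 3 (Cd86, Cd274 and Cd40), with Cd86 at -3.01 and Cd274 at -2.44. For Tnfsf4 the WT control had 0 counts, so its fitted difference depends on the prior count and no value is given.

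In BMDCs no label difference was called. For CRE against WT, 0 of the 10 were called in control, under DMXAA or in the interaction, and 0 of the 12126 genes (0%) were called in any of the 3. At an unadjusted p under 0.05 edgeR found 99, 108 and 60 genes, none of them among the 10. The largest control difference was that of Cd70 (1.19 ± 0.72), and under DMXAA the differences ran from -0.38 ± 0.39 for Tnfsf9 to 0.09 ± 0.70 for Cd83. The intervals were wide for Cd86, Cd83, Icosl and Cd70, whose SE under DMXAA was 0.62 to 0.71, so these values do not show that the labels were alike. The libraries that resembled each other across the labels enter these comparisons.

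**Figure D4:**
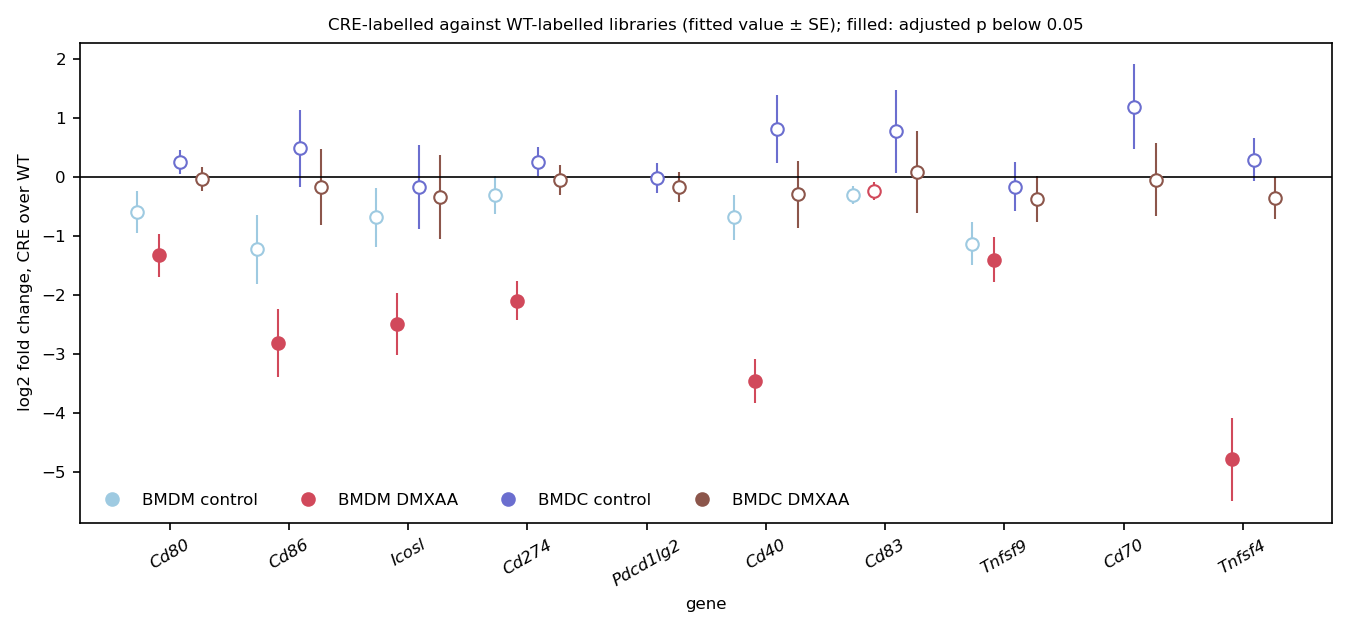
Log2 fold change of CRE over WT with its SE for each gene in control and DMXAA libraries of BMDMs (numbers 1 and 2) and BMDCs; filled symbols passed an adjusted p of 0.05, and Tnfsf4 in BMDM controls, at 0 to 3 counts, is not drawn. The filled BMDM DMXAA points lie between -1.33 and -4.79, while the BMDC DMXAA points lie between -0.38 and 0.09. Tnfsf4, at -4.79, passed the BMDM filter only through the WT DMXAA libraries.

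Between cell types in WT control, 7 of the 10 genes were higher in BMDCs and Tnfsf9 was lower, beside 28.5% of 13368 genes called in either direction. Besides Cd80, Cd83, Cd274, Pdcd1lg2 and Tnfsf4 described above, these were Cd86 (2.93 ± 0.79, edgeR adjusted p = 0.0112; 2.26 without BMDM control number 1, edgeR adjusted p = 0.1204) and Cd70 (at least 2.85-fold against the floor, not called without BMDM control number 1 or 2, edgeR adjusted p = 0.0955 and 0.0894). Under DMXAA 6 were higher (Cd80, Cd83, Pdcd1lg2, Tnfsf9, Cd70 and Tnfsf4) and Cd274 was lower, beside 30.6% of all genes. Pdcd1lg2 and Cd70 were under 1 FPKM in every BMDM library of the fit and passed the filter through BMDC libraries alone, so nothing is read from their place in either count. Cd86 (0.66 ± 0.71) and Icosl (0.32 ± 0.74) gave no call there. The response differed between the cell types in 3 of the 10 genes, Cd274, Tnfsf9 and Tnfsf4, beside 2.61% of all genes. Without BMDM DMXAA number 1, 0 were called. The fitted Tnfsf4 difference rests on 0 counts in WT BMDM controls and is no bound, and it changed sign, to 1.21, with limma on log2(FPKM + 1).

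Neighbouring genes of these pathways were then counted from wider lists, likewise chosen with earlier results of these data known. The counts are to be read beside the shares of all genes that rose and fell. These shares were 18.4% and 20.7% in WT BMDMs, 7.28% and 2.72% in CRE BMDMs, 17.0% and 15.2% in WT BMDCs and 14.0% and 11.4% in CRE BMDCs. Among the other TNF superfamily ligands 6 of 9 tested rose in WT BMDMs and 0 fell, led by Tnfsf10, the death ligand TRAIL (10.44 ± 0.45), and 2 of 9 rose in CRE BMDMs. In BMDCs 6 of 10 rose in each label, among them Tnfsf18, the ligand of GITR (4.74 ± 0.47 in WT and 3.32 ± 0.43 in CRE). Of the CD40 signalling genes 9 of 10 rose and 1 fell in WT BMDMs, with Traf1, an adaptor of TNF receptors, at 4.05 ± 0.77. In CRE BMDMs edgeR called 0 of the 10, with 7 at an unadjusted p under 0.05 and a median of 0.42. In BMDCs 7 rose in WT and 6 in CRE, with Tnfaip3, the NF-kB inhibitor A20, at 3.70 ± 0.42 and 3.08 ± 0.40.

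Other contact and inhibitory partners gave mixed counts. In WT BMDMs 7 of 14 rose and 2 fell, with Icam1, the adhesion ligand of LFA-1, at 4.05 ± 0.34 and Lgals9, which binds TIM-3, at 3.34 ± 0.15. In CRE BMDMs 3 of 14 rose and 0 fell, against 7.28% and 2.72% of all genes, and the WT shares of all genes were 18.4% and 20.7%. WT BMDCs had 9 of 16 higher and 3 lower, and CRE BMDCs 6 and 1, against 17.0% and 15.2% of all genes in WT and 14.0% and 11.4% in CRE. Of the related B7 and butyrophilin genes 2 could be tested, of which 2 fell in WT BMDMs and 1 in each BMDC label. Vsir, the gene of the checkpoint molecule VISTA, fell in WT BMDMs (log2 change -2.31, edgeR adjusted p = 0.00086), in WT BMDCs (-2.135, edgeR adjusted p = 0.0014) and in CRE BMDCs (-1.32, edgeR adjusted p = 0.0218). Of the 8 lymphocyte receptors that these molecules engage, only Cd28 passed the filter in BMDMs, where it fell in WT by 1.96.

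As a description, genes were ranked by Pearson correlation of log2(FPKM + 1) with each member over the 20 libraries, which share cell types, treatments and the close pairs above. The nearest among 13368 genes was Irf4 for Pdcd1lg2 (0.995), Azin2 for Cd80 (0.993), Slco3a1 for Cd274 (0.993), Kynu for Tnfsf4 (0.992), Casp4 for Cd40 (0.987) and Ly6c2 for Cd83 (0.982). It was Ccl5 for Cd86 (0.978), Il23r for Cd70 (0.973), Gm16161 for Icosl (0.922) and Rnd3 for Tnfsf9 (0.913). Il6 followed for Tnfsf4 (0.988), and Gbp5 was among the 3 nearest for both Cd40 (0.984) and Cd274 (0.991). Between members, Cd80 and Tnfsf4 were closest (0.981), then Cd40 and Cd274 (0.974), whereas the PD-1 ligands Cd274 and Pdcd1lg2 gave 0.237.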

How the data were processed

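PolyA RNA-sequencing reads were processed by the authors with CASAVA 1.8, fastp, HISAT2 2.0.5, featureCounts 1.5.0-p3 and DESeq2 1.20.0 on GRCm38/mm10, per the submitters' processing notes. The authors deposited raw counts per gene and FPKM values for each of the 24 libraries (48 columns). Another 60 deposited columns hold the authors' group means of normalized counts (a signal), log2 fold changes and p-values of their own comparisons, and were not used. FPKM were scaled by the authors to effective library sizes of 0.687 to 1.33 times the total count.

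Counts were tested with edgeR 4.0.16 (R 4.3.3) by the quasi-likelihood test after TMM scaling, two-sided, with Benjamini-Hochberg adjustment over all genes tested and a call below 0.05. An SE is the log2 change divided by the square root of F. Genes needed at least 1 FPKM in 2 libraries (BMDMs, and both cell types together) or 3 libraries (BMDCs). BMDM fits used the 8 libraries numbered 1 and 2, BMDC fits 12 and fits of both cell types 20. On simulated counts, 81% of 4-fold changes were recovered in the WT BMDM fit, 85% in the WT BMDC fit and 79.5% between cell types in WT control. False calls numbered 9, 14 and 4. The 200 changed genes were drawn above a minimum mean count, so these shares do not cover genes near 0 counts. Alternatives used DESeq2 1.42.0, limma 3.58.1 on log2(FPKM + 1) and log2(FPKM + 0.1), other filters and scalings, replicate blocks and omission of each library. Scaling to library totals was added after seeing the data.

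In BMDCs, control and DMXAA libraries of the same number and label correlated in their deviations from the group means (0.382 to 0.675, 6 pairs). The number was therefore used as a block within each label in an alternative fit, while the main fits had no block. Counting intervals and floors cover counting error only. The 10 genes and the gene lists were chosen with earlier results of these data known. Genes named from the lists were the called ones of largest fold, up to 3 per list and comparison, and those named for likeness the 3 highest correlations. Figures were drawn with matplotlib 3.10.9.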

Additional observations from a re-analysis of the deposited data

Results flagged for a closer look

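Several responses differed between groups by a test of the difference itself. The DMXAA response of Cd40 was smaller in CRE than in WT BMDMs (log2 difference -2.776, edgeR adjusted p = 0.0422), and both CRE DMXAA libraries lay below both WT ones. The call was lost without WT DMXAA number 1 or any single CRE library, at differences of -2.738 to -2.845. Between WT BMDCs and WT BMDMs, the response of Cd274 was smaller in BMDCs (-1.787, edgeR adjusted p = 0.031) and that of Tnfsf9 larger (3.202, edgeR adjusted p = 0.0111). Neither call was kept without WT DMXAA BMDM number 1, where the differences were -1.675 and 2.874. The response difference of Tnfsf4 was -6.5 (edgeR adjusted p = 0.04), but WT BMDM controls had 0 counts, so that the fitted value depends on the prior count and is no bound.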

How the results depend on the processing

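Of 1940 values of the 10 genes under alternatives, 1713 kept direction and call, 127 lost the call, 43 gained it and 56 uncalled values changed sign. The Tnfsf4 response difference alone reversed, to 1.209 with limma on log2(FPKM + 1). The causes were not tested. With BMDM number 3 included, 0 of the 10 genes were called in the WT and CRE BMDM responses, the BMDM DMXAA label difference, the interaction and the response difference, and 3 between cell types in control. Without a filter 1 gene was called between labels in BMDM controls, 5 in the BMDM interaction and 6 in the response difference. The interaction gave 3 with DESeq2 and 2 with limma at either pseudocount. Fitting the compared groups only gave 5 in CRE BMDMs (4 higher and 1 lower, namely Tnfsf9) and 1 in the response difference.

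With the replicate number as a block over both labels, 5 genes were called between cell types in control and 1 in the response difference. With the replicate block within each label, 3 were called in the BMDM interaction, 6 in the response difference, 6 in WT BMDMs and 9 in each BMDC label. In BMDMs the block also called Cd274 (-1.87, edgeR adjusted p = 0.0397) and Icosl (-1.70, edgeR adjusted p = 0.0227) in the interaction and Cd80 (0.60, edgeR adjusted p = 0.0482) in the WT response. BMDM libraries of the same number correlated across treatments at 0.657 in WT and 0.031 in CRE, and 2 numbers per label are too few to tell whether the numbers pair them.

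Leaving out 1 library at a time gave 4 to 5 called genes in WT BMDMs, 1 to 2 in CRE BMDMs, 0 to 2 and 1 to 5 between labels in BMDM controls and DMXAA, 0 to 3 in the BMDM interaction, 6 to 8 in WT BMDCs, 5 to 7 in CRE BMDCs, 4 to 6 and 4 to 7 between cell types in control and DMXAA, 0 to 3 in the response difference and 0 in the BMDC label comparisons.

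Over all genes, calls went from 4531 to 6849 in WT BMDMs with library totals, 1157 to 6389 in CRE BMDMs with the compared groups only, 5 to 700 and 2227 to 3630 between labels in BMDM controls and DMXAA without a filter, and, with the block within each label, 424 to 1702 in the BMDM interaction, 3904 to 5911 in WT BMDCs, 3084 to 5181 in CRE BMDCs and 349 to 1465 in the response difference. CRE BMDCs gave 1853 with the compared groups only. With BMDM number 3 the cell type comparisons fell from 3812 to 1169 in control and 4092 to 1324 under DMXAA, and the other BMDM comparisons to 0. Library totals shifted the median of all genes to -0.59 in WT BMDMs, -0.24 in CRE BMDMs, -0.36 and -0.34 in WT and CRE BMDCs, 0.24 between labels in DMXAA BMDMs, 0.32 in the BMDM interaction, and 0.21 and 0.20 in the DMXAA and response differences between cell types.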
